A study of Homo sapiens with 4 samples.

Results

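NRF2, the product of NFE2L2, is the transcription factor that switches on antioxidant and detoxifying genes. In unstressed cells KEAP1 holds NRF2 and hands it to a CUL3 and RBX1 ubiquitin ligase for destruction. Oxidants and electrophiles modify KEAP1, and NRF2 then accumulates, pairs with a small MAF protein and binds the antioxidant response element of its targets, while BACH1 occupies the same elements and represses some of them, HMOX1 above all. ATF4 drives a separate programme, the integrated stress response, whose targets make and import amino acids and charge tRNAs. The 9 genes described here, NQO1, HMOX1, GCLC, GCLM, TXNRD1, SRXN1, PGD, ME1 and OSGIN1, are widely used readouts of NRF2. They were chosen by name to tell an oxidative stress pattern from an ATF4 pattern, and they are 9 of the 28775 genes in the count table. All 9 were found by Entrez identifier and all 9 passed the filter on low counts.

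HEK293T is a transformed human embryonic kidney line. Polyadenylated RNA from 4 libraries was compared: MORC2 KO replicate 1 and MORC2 KO replicate 2, made with Cas9 and gRNA 1 or gRNA 2 against the chromatin regulator MORC2, and WT replicate 1 and WT replicate 2, which carried no knock-out gRNA. No treatment is given for any of them. The KO libraries came from bulk edited populations and not from single clones, and each population stands for 1 gRNA, so the spread between the KO libraries includes any difference between the gRNAs.

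Between 53970043 and 64312514 read pairs were counted on genes in each library. Levels are given as CPM, counts scaled to library size with TMM factors, and differences as the log2 fold change of MORC2 KO against WT with its 95% interval. A gene was called where the adjusted p of edgeR's quasi-likelihood test (Benjamini-Hochberg, over 16675 genes) was under 0.05. MORC2 itself was at 51.2 and 55.0 CPM in the KO libraries and at 86.2 and 87.7 CPM in the WT libraries. Its log2 fold change was -0.71 (SE 0.06, adjusted p = 1.37e-04 by edgeR's quasi-likelihood test), which left 61.1% of the WT mRNA level and does not measure the protein. The KO libraries differed more from each other than the WT libraries did. The median absolute log2 difference per gene was 0.120 between the KO libraries and 0.0758 between the WT libraries, and MORC2 KO replicate 2 stood farther from both WT libraries (0.141 and 0.163) than MORC2 KO replicate 1 did (0.0880 and 0.0882). All 8 markers of HEK293 cells were detected in every library, with a summed level of 700 to 741 CPM. Most of that sum was VIM, at 547 to 585 CPM, and LHX1 was lowest, at 0.507 to 0.969 CPM. The 8 markers of blood, liver, fibroblast and endothelial cells summed to 3.36 to 4.17 CPM, nearly all of it COL1A1, and COL1A2 was at 0 in every library. In bulk RNA, fewer cells that express a gene and less of its RNA per cell cannot be told apart.

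Letters that match the core of the element bound by NRF2 were found in promoter windows of several of the 9 genes and are shown here. Binding was not measured. The core letters TGACNNNGC were searched on both strands of RefSeq promoter windows (GRCh38.p14) that run from 250 bases before to 50 bases after a start site. Windows were matched for 8 of the 9 genes, all but HMOX1, and those of GCLM, ME1, TXNRD1 and PGD, 4 of 8 genes, held the core. By window, 5 of 9 held it, against 13.3% of all 35116 windows. Of the windows, 9 of 32 (28.1%) on a wider list of NRF2 targets and 14 of 52 (26.9%) on a list of ATF4 targets held the same core. By gene these were 9 of 23 (39.1%) and 12 of 32 (37.5%), and a gene with several windows has more chances. No share by gene was taken over all genes. The stretches below read 5′ to 3′ along the strand of the gene, with the matched core, called the element below, in capitals.
GCLM: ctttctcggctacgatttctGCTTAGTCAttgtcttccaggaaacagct
ME1: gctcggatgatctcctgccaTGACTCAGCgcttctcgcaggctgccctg
TXNRD1: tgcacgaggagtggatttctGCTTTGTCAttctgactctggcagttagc
PGD: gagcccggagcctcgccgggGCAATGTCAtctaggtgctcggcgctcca

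The GCLM stretch lies at chr1:93909436-93909484 on the minus strand, with the element beginning 34 bases before the start site. The ME1 stretch lies at chr6:83431160-83431208, also on the minus strand, 137 bases before the start. TXNRD1 is on the plus strand, and its stretch is at chr12:104286910-104286958, 102 bases before 1 of its 2 start sites. For PGD, on the plus strand, the stretch is at chr1:10398843-10398891 and the element begins 201 bases before the start. In the GCLM, TXNRD1 and PGD stretches shown the core reads on the strand opposite to the gene. TXNRD1 held 2 more cores before its other start site, TGACTTCGC on the strand of the gene and TGACGGAGC on the opposite strand, and ME1 held 1 more, TGACGGTGC, after its start. Only ME1 among these 8 genes held the longer form TGACTCAGC, which contains the AP-1 letters TGACTCA and was present in 0.561% of all windows. The letters TGATGNAAT, the element read by ATF4 with its C/EBP partners, were found in none of the 8 genes and in 0.991% of all windows. They were also rare on the ATF4 list, in 2 of 52 windows (3.85%) and 2 of 32 genes (6.25%). Such matches are letters in a short window, and elements farther from the start site lie outside it.

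None of the 9 NRF2 target genes was called higher or lower in MORC2 KO cells, beside 0.618% of all genes tested. Of all genes, 0.588% were called higher and 0.03% lower. At an unadjusted p under 0.05, 0 of the 9 were higher and 2 were lower (HMOX1 and PGD), against 8.14% and 6.17% of all genes tested (14.3% in either direction). DESeq2 called 0 of the 9 as well. The fitted log2 fold change was above 0 for 5 genes and below 0 for 4, and its median was 0.01, the same as the median of all genes tested to 2 decimals. The summed level of the 9 genes was 688 and 663 CPM in the KO libraries and 702 and 715 CPM in the WT libraries.

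**Figure D1:**
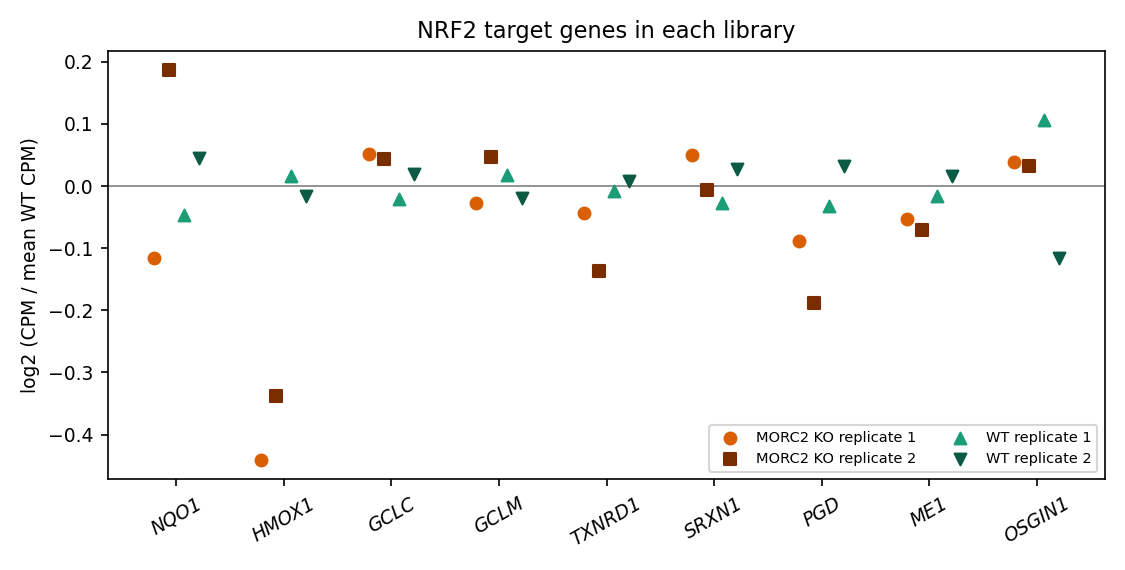
Level of each of the 9 NRF2 target genes in each of the 4 libraries, as log2 of its CPM over the mean CPM of the WT libraries (vertical axis), with 1 point per library. HMOX1 is the gene whose KO points lie farthest from its WT points, both near -0.4, while those of GCLM, SRXN1, NQO1 and OSGIN1 interleave with WT.

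NQO1 encodes the quinone reductase that is the usual first readout of NRF2. It lies at chr16:75511583-75528719 on the minus strand (T2T-CHM13v2.0, the build of the count table, as for every gene position that follows). NQO1 was low in these cells, with 223 and 304 counts in the KO libraries and 233 and 222 in the WT libraries. These are 3.73 and 4.60 CPM for the KO libraries and 3.92 and 4.17 CPM for the WT libraries. The KO libraries held both the lowest and the highest value, so the groups overlapped. NQO1 had a log2 fold change of 0.05 (95% interval -0.27 to 0.36, adjusted p = 0.914 by edgeR's quasi-likelihood test).

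HMOX1 encodes haem oxygenase 1, which opens the haem ring to biliverdin, iron and carbon monoxide. The gene is at chr22:35839114-35852226 on the plus strand, with 5 exon pieces that sum to 1554 bases. The libraries held 633 and 751 counts in MORC2 KO and 865 and 756 in WT. HMOX1 stood at 10.6 and 11.4 CPM in the KO libraries and at 14.5 and 14.2 CPM in the WT libraries, which is 10.98 ± 0.551 against 14.4 ± 0.235 CPM (SD, n = 2 each). Both KO libraries were below both WT libraries, and the gap between the genotypes was wider than the differences within them. HMOX1 had a log2 fold change of -0.39 (SE 0.09, 95% interval -0.57 to -0.20), a level of 76.4% of WT with an interval of 67.2% to 86.9%. Its unadjusted p was 6.12e-04 and its adjusted p was 0.0776 by edgeR's quasi-likelihood test, outside the threshold. By unadjusted p it ranked 11th among the genes with a negative log2 fold change, and at an adjusted p under 0.10 it was 1 of 15 genes called lower (0.09% of those tested). The call of HMOX1 depended on the processing. It was called lower with offsets for abundance (adjusted p = 0.0472) and with offsets for GC content and length (0.0462), both by edgeR's quasi-likelihood test. With no filter on low counts it was also called (adjusted p = 0.00354 by the same test), in a fit that called 182 of all genes lower. With library size alone HMOX1 was not called (adjusted p = 0.127 by the same test). Across 16 alternative settings its log2 fold change stayed between -0.44 and -0.34.

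GCLC and GCLM encode the catalytic and the modifier subunit of glutamate-cysteine ligase, the first and rate-limiting enzyme of glutathione synthesis. GCLC, at chr6:53337262-53385020 on the minus strand, was at 66.5 and 66.0 CPM in MORC2 KO and at 63.2 and 65.0 CPM in WT. Both KO values lay above both WT values, the only one of the 9 genes of which that was true (11.1%, against 24.1% of all genes tested). The log2 fold change of GCLC was 0.05 (95% interval -0.08 to 0.17, adjusted p = 0.727 by edgeR's quasi-likelihood test), so the interval reached no higher than 113% of the WT level. GCLM, at chr1:93733450-93757695 on the minus strand, was at 69.2 and 72.9 CPM in MORC2 KO and at 71.4 and 69.6 CPM in WT. The KO libraries bracketed the WT libraries. Its log2 fold change was 0.01 (95% interval -0.12 to 0.14, adjusted p = 0.952 by edgeR's quasi-likelihood test).

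TXNRD1 encodes the cytosolic thioredoxin reductase and SRXN1 the sulfiredoxin that repairs over-oxidised peroxiredoxins. TXNRD1, at chr12:104177472-104311962 on the plus strand, was at 300.2 and 281.4 CPM in the KO libraries and at 307.8 and 311.0 CPM in the WT libraries. Both KO libraries were below both WT libraries, with MORC2 KO replicate 2 the lowest. The log2 fold change of -0.09 (95% interval -0.22 to 0.04, adjusted p = 0.514 by edgeR's quasi-likelihood test) was no larger than the difference between the KO libraries, -0.09 for replicate 2 against replicate 1. SRXN1, at chr20:690889-697474 on the minus strand, was at 62.0 and 59.6 CPM in MORC2 KO and at 58.7 and 61.0 CPM in WT. Its groups overlapped, and the log2 fold change was 0.02 (95% interval -0.11 to 0.15, adjusted p = 0.897 by edgeR's quasi-likelihood test).

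PGD and ME1 encode enzymes that regenerate NADPH, the reducing power that glutathione and thioredoxin reductases spend. PGD, phosphogluconate dehydrogenase of the pentose phosphate pathway, lies at chr1:9942673-9964125 on the plus strand. The KO libraries held 130.6 and 121.9 CPM of PGD and the WT libraries 135.8 and 141.9 CPM, so both KO values were below both WT values. That is a log2 fold change of -0.14 (95% interval -0.27 to -0.01), or 90.9% of the WT level, with an unadjusted p of 0.0413 and an adjusted p of 0.330 by edgeR's quasi-likelihood test. The log2 fold change of PGD was -0.19 without MORC2 KO replicate 1 and -0.09 without MORC2 KO replicate 2. ME1, the cytosolic malic enzyme, at chr6:84433644-84654257 on the minus strand, was at 44.5 and 43.9 CPM in MORC2 KO and at 45.6 and 46.7 CPM in WT. Here too the KO values were the lower pair, with a log2 fold change of -0.06 (95% interval -0.19 to 0.06, adjusted p = 0.640 by edgeR's quasi-likelihood test). With HMOX1 and TXNRD1, that makes 4 of 9 genes (44.4%) with both KO libraries below both WT libraries, where 23.4% of all genes tested showed that order.

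OSGIN1 encodes an oxidative stress-induced growth inhibitor. It lies at chr16:90019300-90032388 on the plus strand and had the fewest counts of the 9 genes, with 70 and 77 in the KO libraries and 73 and 56 in the WT libraries. In CPM these were 1.17 and 1.17 against 1.23 and 1.05, with both KO values between the WT values. Its log2 fold change was 0.03, with an interval from -0.46 to 0.53 (adjusted p = 0.965 by edgeR's quasi-likelihood test). A rise to 144% or a fall to 72.6% of the WT level was thus within what these counts allowed, as was a range of 83.0% to 129% for NQO1. For the other 7 genes the upper end of the interval was between 86.9% (HMOX1) and 113% (GCLC) of the WT level. The fitted change exceeded the larger of the differences within a genotype for 4 of the 9 genes (HMOX1, PGD, ME1 and GCLC), against 32.7% of all genes tested.

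**Figure D2:**
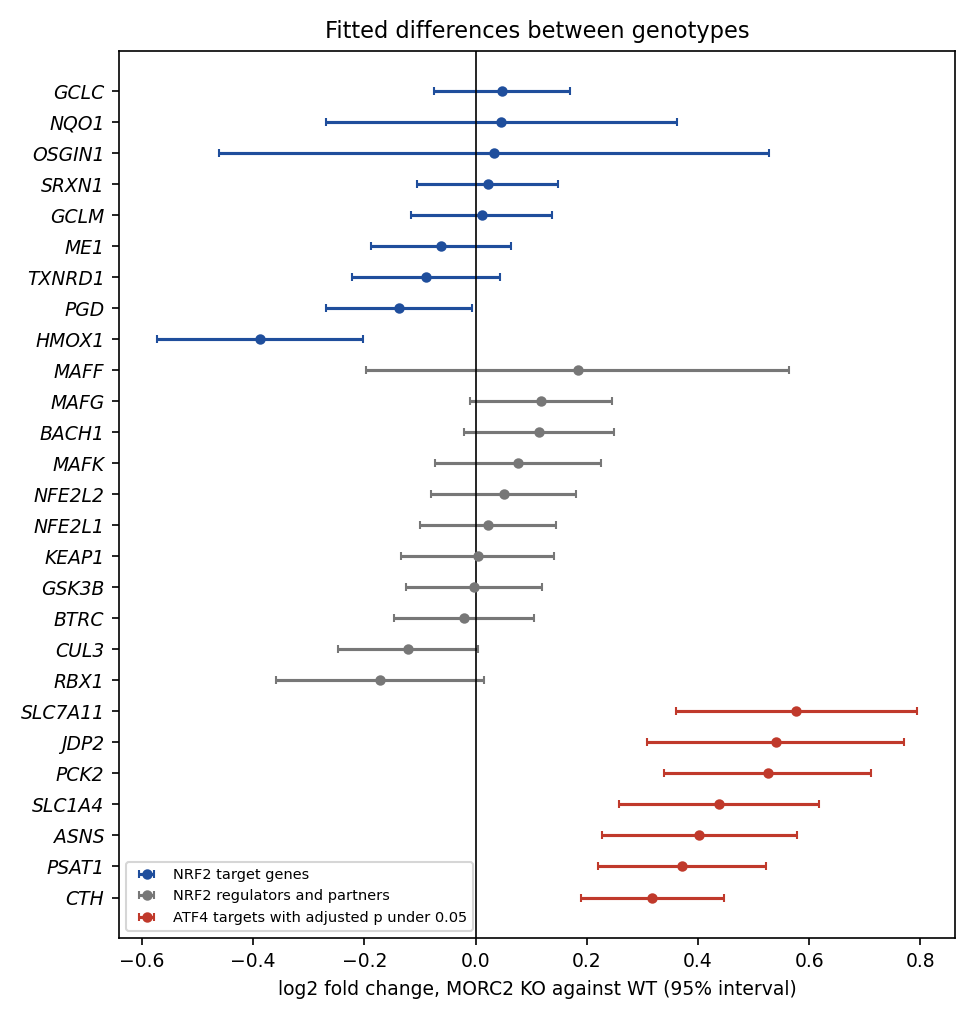
Fitted log2 fold change of MORC2 KO against WT (horizontal axis, bars are 95% intervals) for the 9 NRF2 target genes, 11 regulators and partners of NRF2, and the 7 ATF4 targets with an adjusted p under 0.05. The intervals of HMOX1 and PGD lie below 0, those of the other 7 NRF2 targets and of all 11 regulators cross 0, and those of the 7 ATF4 targets lie above 0.

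The 9 genes spanned a wide range of levels when set on one scale per length. In CPM per kb of exon, averaged over the 4 libraries, TXNRD1 was highest at 70.4 and PGD followed at 53.6. SRXN1 was at 23.9, GCLC at 17.2, GCLM at 14.5, ME1 at 13.5 and HMOX1 at 8.16 CPM per kb. NQO1 (1.63 CPM per kb) and OSGIN1 (0.600 CPM per kb) were far below, at percentiles 33.7 and 22.1 of all genes tested, whereas TXNRD1 was at percentile 94.4. For no pair of neighbours in this order did the ranges over the 4 libraries overlap. The closest pair was GCLM and ME1, with a ratio of 1.07. The order was the same in KO and WT libraries, as the ranges over all 4 show.

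The regulators of NRF2 were not called either. Of 11 genes that encode NRF2, its degradation machinery, its partners, its competitor and the related factor NFE2L1, 0 were called and 0 had an unadjusted p under 0.05, and the smallest adjusted p was 0.361 by edgeR's quasi-likelihood test. NFE2L2 was at 61.7 and 57.5 CPM in MORC2 KO and at 57.9 and 57.1 CPM in WT, a log2 fold change of 0.05. KEAP1 was at 101 and 95.02 CPM in MORC2 KO and at 93.6 and 102 CPM in WT, with a log2 fold change of 0.00. The mRNA of NFE2L2 and KEAP1 is not a measure of NRF2 activity, since NRF2 is mainly controlled as a protein.

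BACH1, the repressor of HMOX1, was at 53.9 and 57.0 CPM in MORC2 KO and at 52.8 and 49.6 CPM in WT. Both KO values were the higher, with a log2 fold change of 0.11 (95% interval -0.02 to 0.25, adjusted p = 0.417 by edgeR's quasi-likelihood test). Among the ligase genes, CUL3 had a log2 fold change of -0.12 and RBX1 of -0.17. RBX1 was at 65.0 CPM in MORC2 KO replicate 1, 65.4 and 66.3 CPM in the WT libraries and 52.0 CPM in MORC2 KO replicate 2, so 1 library set its value. BTRC (-0.02) and GSK3B (-0.00), which serve a KEAP1-independent route of NRF2 turnover, lay close to 0 on the log2 fold change scale. The small MAF genes had log2 fold changes of 0.18 (MAFF), 0.12 (MAFG) and 0.08 (MAFK), and NFE2L1 had 0.02. MAFK shares 23.9% of its exon bases with TMEM184A, and read pairs over shared bases were not counted. Larger shares hold for 2 genes named below, FTH1 (73.2%, with BEST1) and ASNS (69.5%, with CZ1P-ASNS).

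A wider list of 32 NRF2 targets gave the same count of calls. It held enzymes of the thioredoxin, glutathione, NADPH and aldo-keto reductase systems, ferritin chains, haem-handling proteins and drug exporters. Of these, 28 passed the filter and 0 were called, with a smallest adjusted p of 0.223 by edgeR's quasi-likelihood test. AKR1C1, AKR1C2, PTGR1 and ABCC3 did not pass it, with at most 10 counts in any library. At an unadjusted p under 0.05, 6 of the 28 were lower and 0 higher, beside 6.17% and 8.14% of all genes. The log2 fold change was below 0 for 19 of the 28, with a median of -0.09 (-0.06 without MORC2 KO replicate 2).

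The 4 of these genes with the smallest p all had a negative log2 fold change. TKT, transketolase of the pentose phosphate pathway, was at 413 and 385 CPM in MORC2 KO and at 447 and 471 CPM in WT (log2 fold change -0.20). EPHX1, the microsomal epoxide hydrolase, had 43.2 and 37.1 CPM in KO and 45.0 and 47.6 CPM in WT (log2 fold change -0.21). IDH1, a cytosolic source of NADPH, had a log2 fold change of -0.18 and FTH1, the ferritin heavy chain, of -0.16. None of the 4 was called, and in each both KO libraries were below both WT libraries, with MORC2 KO replicate 2 the lowest. Abundant genes as a whole also had a median below 0. Among the 6706 genes above a log2 CPM of 5, the median log2 fold change was -0.04, and it was -0.03 for the 6 of the 9 NRF2 target genes in that range and -0.12 for 17 of the wider list.

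Calls were found on the ATF4 list. Of 40 ATF4 targets, 39 passed the filter, 7 (17.9%) were called higher and 0 lower, beside 0.588% and 0.03% of all genes tested. A log2 fold change above 0 was found for 37 of the 39, with a median of 0.19, and both KO libraries were above both WT libraries for 32. This list shows again what earlier results of these data had shown and is set here only beside the NRF2 genes. PCK2, the mitochondrial form of PEP carboxykinase, was at 36.6 and 44.8 CPM in MORC2 KO and at 28.1 and 28.5 CPM in WT (log2 fold change 0.53, adjusted p = 0.0124 by edgeR's quasi-likelihood test). ASNS, asparagine synthetase, was at 27.3 and 31.9 CPM in KO and at 23.1 and 21.8 CPM in WT (log2 fold change 0.40, adjusted p = 0.0482 by the same test). Both genes were higher in each KO library than in either WT library. PSAT1 of serine synthesis (0.37), CTH of cysteine synthesis (0.32), the neutral amino acid transporter SLC1A4 (0.44) and the transcription factor JDP2 (0.54) were the other called genes besides SLC7A11. The call of ASNS was lost with the newer edgeR form, robust dispersions, abundance offsets, a minimum of 10 counts in every library and without WT replicate 2 (adjusted p = 0.0505 to 0.145 by edgeR's quasi-likelihood test). That of JDP2 was lost with abundance offsets, with the minimum of 10 counts and without WT replicate 2, and that of SLC1A4 with abundance offsets and without WT replicate 2. The calls of PSAT1 and CTH were lost without either WT library. The median of the list was 0.21 without MORC2 KO replicate 1 and 0.15 without MORC2 KO replicate 2. It was 0.16 without WT replicate 1 and 0.21 without WT replicate 2.

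SLC7A11, the cystine importer that feeds glutathione synthesis, is a known target of both factors. It was kept on the ATF4 list alone. Its level was 164 and 213 CPM in the KO libraries and 133 and 120 CPM in the WT libraries, so the groups did not overlap and MORC2 KO replicate 2 was the highest. SLC7A11 rose by 0.58 on the log2 scale (SE 0.10, adjusted p = 0.0192 by edgeR's quasi-likelihood test), a call that was lost with robust dispersions (adjusted p = 0.0609) and with DESeq2 (adjusted p = 0.186). GCLC and GCLM, which use the cysteine that this import supplies, had upper interval ends of 113% and 110% of the WT level. The interval of SLC7A11 (0.36 to 0.79) therefore did not overlap that of GCLC (-0.08 to 0.17) or GCLM (-0.12 to 0.14), and the difference between the genes was not tested.

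Oxidant-removing enzymes that do not depend mainly on NRF2 were not called higher. Of 16 such genes, among them superoxide dismutases, catalase, glutathione peroxidases and peroxiredoxins, 0 were called and 4 were lower at an unadjusted p under 0.05, beside 0.618% and 6.17% of all genes tested. The 4 were mitochondrial thioredoxin TXN2 (log2 fold change -0.22), PRDX5 (-0.16), catalase CAT (-0.16) and SOD2 (-0.14). Values above 0 were found for 1 of the 16, against 51.5% of all genes tested, and the median was -0.13. That median was -0.22 without MORC2 KO replicate 1 and -0.04 without MORC2 KO replicate 2. The median of the 12 of these above a log2 CPM of 5 was also -0.13.

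Heat shock genes are targets of HSF1 and respond to damaged proteins. Of 11 tested, 0 were called and 7 were lower at an unadjusted p under 0.05, beside 0.618% and 6.17% of all genes tested. All 11 had a log2 fold change below 0, with a median of -0.24, which was -0.34 without MORC2 KO replicate 1 and -0.12 without MORC2 KO replicate 2. HSPA1B was at -0.28 without MORC2 KO replicate 2. DNAJB1, a co-chaperone of HSP70, was at 211 and 154 CPM in MORC2 KO and at 227 and 246 CPM in WT (log2 fold change -0.37), and BAG3 had a log2 fold change of -0.24. HSPA1B was at 1255 and 813 CPM in KO and at 1495 and 1566 CPM in WT (log2 fold change -0.57), and HSPA1A had -0.60. These last genes are near-identical copies, and since read pairs that map to several places were counted, their split is uncertain. In all 4 genes MORC2 KO replicate 2 was the lowest library. As the list medians above show, the size of the difference depended on which KO library was left out.

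Metallothioneins, which respond to metals and oxidants, passed the filter in 3 of 6 cases. MT2A was at 9.15 and 9.19 CPM in MORC2 KO and at 11.3 and 11.9 CPM in WT, a log2 fold change of -0.34 (adjusted p = 0.153 by edgeR's quasi-likelihood test). Both KO libraries were below both WT libraries. MT1X (log2 fold change 0.03) and MT1F (0.25, on 53 to 112 counts) overlapped between the groups.

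HMOX1 had the widest range of the 9 genes over the 4 libraries, 0.46 on the log2 CPM scale. The 3 tested genes whose pattern was nearest to it, by the root mean square difference of centred log2 CPM over 4 libraries, were PAQR5 (0.0123), QRFPR (0.0227) and TBX15 (0.0332). Their log2 fold changes were -0.38, -0.37 and -0.43, and none was called. With 4 libraries a close pattern is easily found, and 15 genes lay within 0.05 of HMOX1.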

How the data were processed

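The authors aligned read pairs to T2T-CHM13 with Subread 2.0.6 and deposited raw counts per RefSeq gene from featureCounts 2.0.6. Per the file headers, multi-mapping pairs were counted, strand was not used and pairs over 2 genes were left out; the study's methods instead speak of default options, under which multi-mapping pairs are not counted. No column belonged to other samples (0). Symbols were matched by Entrez identifier (28763 of 28775), and promoter windows came from RefSeq (GRCh38.p14).

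Genotypes were compared with the older quasi-likelihood form of edgeR 4.0.16 (R 4.3.3), after filterByExpr and TMM, as in the study's methods, with Benjamini-Hochberg adjustment at 0.05. DESeq2 1.42.0 was an alternative. Intervals come from the same fit and CPM errors are SDs of 2 libraries. The p-values set the difference between genotypes against the spread within 2 KO populations and within 2 WT replicates. For each gene, the fit's estimate of that spread also draws on the other genes tested. A single-value permutation test of 2 against 2 cannot go below 0.333. The scripts were tested on simulated data.

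The 9 genes and all lists were chosen with earlier results of these data known. Named are the 9 genes, MORC2, the regulators, per list the called genes and the 4 with the smallest p, and the 3 genes nearest HMOX1 in pattern. COL1A1, COL1A2 and the genes under the filter were named after their values were seen.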

Additional observations from a re-analysis of the deposited data

How the results depend on the processing

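Among settings that kept every library, the count of called NRF2 target genes went from 0 to 1 in several, HMOX1 each time. These were abundance offsets, GC and length offsets, no filter, the replicate block, the crossed replicate block and an adjusted p under 0.10. With 1 library left out, log2 fold changes ran from -0.44 to -0.34 for HMOX1 and from -0.19 to -0.09 for PGD. A lone library is assumed there to vary like the other genotype. Fits with 1 library left out also called genes, HMOX1 and PGD among them, and those calls are not counted in this section. The adjusted p of HMOX1 was 0.0213 with the replicate block, by edgeR's quasi-likelihood test.

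ATF4 targets called numbered 12 with GC and length offsets, 15 with no filter, 12 with the replicate block and 24 with the crossed block. They numbered 6 with the newer edgeR form, 5 each with robust dispersions, abundance offsets and a minimum of 10 counts, and 9 with DESeq2. Heat shock genes called numbered 1 with GC and length offsets, 6 with no filter, 3 with the replicate block and 7 with the crossed block. With no filter, 1 other detoxifying enzyme and 1 metallothionein were called. With the crossed block, 1 regulator, 6 wider NRF2 targets, 4 other detoxifying enzymes and 1 metallothionein were called. Genes of these lists were also called without MORC2 KO replicate 1, and only medians are given for that fit. Without MORC2 KO replicate 1 the median log2 fold change was 0.02 for regulators, -0.11 for wider NRF2 targets, -0.22 for other detoxifying enzymes and 0.06 for metallothioneins. Without MORC2 KO replicate 2 these medians were 0.05, -0.06, -0.04 and -0.28. All genes called higher and lower, 98 and 5, became 237 and 42 with the replicate block, 185 and 34 with GC and length offsets, and 463 and 182 with no filter. They were 95 and 5 with the newer edgeR form, 92 and 5 with robust dispersions and 81 and 6 with abundance offsets. With a minimum of 10 counts they were 85 and 5, and with DESeq2 115 and 17.

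The replicate numbers mark a gRNA in KO, and the labels name nothing that a number shares between KO and WT. Deviations of same-numbered libraries correlated at -0.124 across genes. With 2 numbers, this value cannot tell whether same-numbered libraries shared any handling. The crossed pairing, added after seeing the data, called 903 genes higher and 809 lower.

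The median log2 fold change of the 9 genes, 0.0108, became 0.0508 with library size alone and -0.0462 to -0.00568 with 1 library left out. The element count fell from 4 genes to 1 with the longer form. The direction turned for genes close to 0. With abundance offsets NQO1 was at -0.0261, OSGIN1 at -0.0748, GSK3B at 0.0370 and MT1X at -0.0183. With GC and length offsets GCLM was at -0.0257 and KEAP1 at -0.00190, and KEAP1 was at -0.00202 with RLE scaling and -0.00204 with DESeq2. With library size alone BTRC was at 0.0189 and GSK3B at 0.0373. With 1 library left out, log2 fold changes ran from -0.113 to 0.188 for NQO1, -0.0249 to 0.0470 for GCLM, -0.00662 to 0.0526 for SRXN1, -0.0707 to 0.150 for OSGIN1, -7.41e-05 to 0.103 for NFE2L2, -0.0561 to 0.0663 for KEAP1, -0.0501 to 0.00926 for BTRC, -0.0256 to 0.0219 for GSK3B, -0.279 to 0.626 for MT1F and -0.0336 to 0.102 for MT1X. The cause of these changes was not tested. NQO1, OSGIN1 and MT1F rest on 53 to 304 counts per library.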
